A study of Rattus norvegicus with 9 samples.

Results

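Plk2, Plk3, Sgk1, Pim1, Pim3 and Camk1g are serine/threonine kinases, and the first 4 were grouped under the label of inducible kinases. They were selected by gene name on the array, with Sgk1 listed under its older name Sgk, and all 6 were present, with 8 of the 41012 probes. All 8 probes stood well above background on all 9 arrays, and all 6 genes were among the 25786 genes or features tested. Messenger RNA was measured on 9 single-colour Agilent arrays of rat cortical neurons, dissociated from prenatal pups and grown in Neurobasal with a B27 or NS21 supplement for 11 to 15 days, with 3 arrays in each of 3 groups. All groups had spent 48 h in tetrodotoxin (TTX), a blocker of voltage-gated sodium channels that silences action potentials. Neurons of the TTX group had no washout, and the W15 and W45 groups were collected 15 min and 45 min after 3 washes had taken the toxin away. No untreated culture was analysed here, so every comparison starts from silenced neurons. None of the 6 kinases passed the test in any of the comparisons, so the label "inducible" was not borne out by a call in these arrays, and the genes are described below as the 6 kinases.

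Many of these kinases are thought to be controlled largely through the amount of their mRNA, which links a burst of transcription to phosphorylation. Pim kinases lack a regulatory domain and are active once made. Sgk1 was named for its induction by serum and glucocorticoids and is switched on by PDK1 and mTORC2 downstream of PI3-kinase. Plk2 and Plk3 are polo-like kinases that carry polo-box domains for docking to phosphorylated partners. Plk2, first described as Snk, is known in hippocampal neurons as an activity-induced kinase that targets the spine protein SPAR (gene Sipa1l1) for degradation and so weakens synapses after prolonged activity. Camk1g encodes a membrane-anchored calcium/calmodulin-dependent kinase that acts in dendrite growth.

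Levels are given as the log2 processed signal minus the 75th percentile of the array, so that 0 is the brightness at that percentile. The level of 1 probe cannot be set against that of another, and only samples are compared. The cultures carried RNA of neurons and of glia, as 6 of 6 neuronal, 5 of 6 astrocyte and 7 of 7 oligodendrocyte markers stood above background on all arrays. Of 6 microglial markers, 2 did so on all arrays and 2, Aif1 and Cx3cr1, on none. Among endothelial and mural markers 4 of 6 did so on all arrays, and among fibroblast markers 5 of 5. In such bulk RNA, fewer cells of a type and less RNA per cell cannot be told apart. Arrays of the W45 group resembled each other least, with mean correlations within the group of 0.9855 to 0.9877, against 0.9926 to 0.9953 in the other groups. W15 replicates 1 and 2 and W45 replicates 2 and 3 lay on slide 3, TTX replicate 1, W15 replicate 3 and W45 replicate 1 on slide 1, and TTX replicates 2 and 3 on slide 2. Comparisons with TTX were therefore partly confounded with slide. The labels do not say whether replicates were separate cultures, so the p-values measure only the spread between these samples, which may be technical.

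The probes of Plk2 and of the brighter Plk3 signal read related stretches of the 2 genes, and are shown because both genes are described through them. Capitals mark the bases that are identical when the probes are aligned without gaps, which are 36 of the 48 aligned bases.
Plk2: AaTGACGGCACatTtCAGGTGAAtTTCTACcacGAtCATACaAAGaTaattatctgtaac
Plk3: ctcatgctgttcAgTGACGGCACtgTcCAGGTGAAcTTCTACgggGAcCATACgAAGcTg
The Plk2 probe (transcript NM_031821) lies at chr2:41725929-41726121 on the plus strand of the rn3 build, and its 60 bases span 193 bases of the genome. The Plk3 probe (XM_342888) lies at chr5:137449260-137449429 on the minus strand and spans 170 bases. A span longer than the probe means that the genome holds further sequence between its parts; no rn3 gene annotation was used here to name exons. The second, dimmer Plk3 probe lies elsewhere in the gene, at chr5:137451899-137452775, and gives a reading that does not use the related stretch.
Plk3, dimmer probe: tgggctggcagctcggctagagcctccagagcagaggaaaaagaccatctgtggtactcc

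The first comparison asks which kinases had changed by 15 min after the return of activity. By limma's moderated test with Benjamini-Hochberg adjustment over all genes, 0 of the 6 kinases were called, beside 0.0233% of all genes called higher and 0% called lower. At an unadjusted p under 0.05 the count was also 0 of 6, where 2.58% of all genes were higher and 0.919% lower. The washout itself was visible on these arrays. Fos, whose induction marks active neurons, had a log2 rise of 4.87 ± 0.34 (SE, limma adjusted p = 0.00176). The median log2 fold change of the 6 kinases was 0.09, against 0.06 over all genes tested.

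Plk2 stood at 2.03, 1.79 and 1.74 on the 3 TTX arrays and at 1.60, 1.44 and 1.70 on the 3 W15 arrays. All 3 W15 arrays were thus below all 3 TTX arrays, as was so for 3.7% of all genes, although the gap between the nearest arrays was narrow. On the log2 scale the change was -0.27 ± 0.18 (SE, n = 3 in each group) and was not called (limma adjusted p = 0.991). On slide 1 alone, with 1 array per group, the difference was -0.33. With slide as a block it was -0.53 ± 0.30.

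Pim3, a close relative of Pim1, had a log2 fold change of -0.26 ± 0.16 at 15 min (SE, limma adjusted p = 0.991). Its W15 arrays were split, with 4.0 on replicate 1 and 3.42 and 3.47 on replicates 2 and 3, while the TTX arrays lay between 3.84 and 3.95. The other 4 kinases had log2 fold changes from 0.09 (Sgk1) to 0.16 (Pim1) at 15 min, all with intervals that span 0. The W15 arrays of Plk3 and of Camk1g lay above all TTX arrays by small margins, as did those of 10.3% of all genes. Their log2 fold changes were 0.10 ± 0.13 and 0.12 ± 0.18 (SE), so neither exceeded its error.

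**Figure D1:**
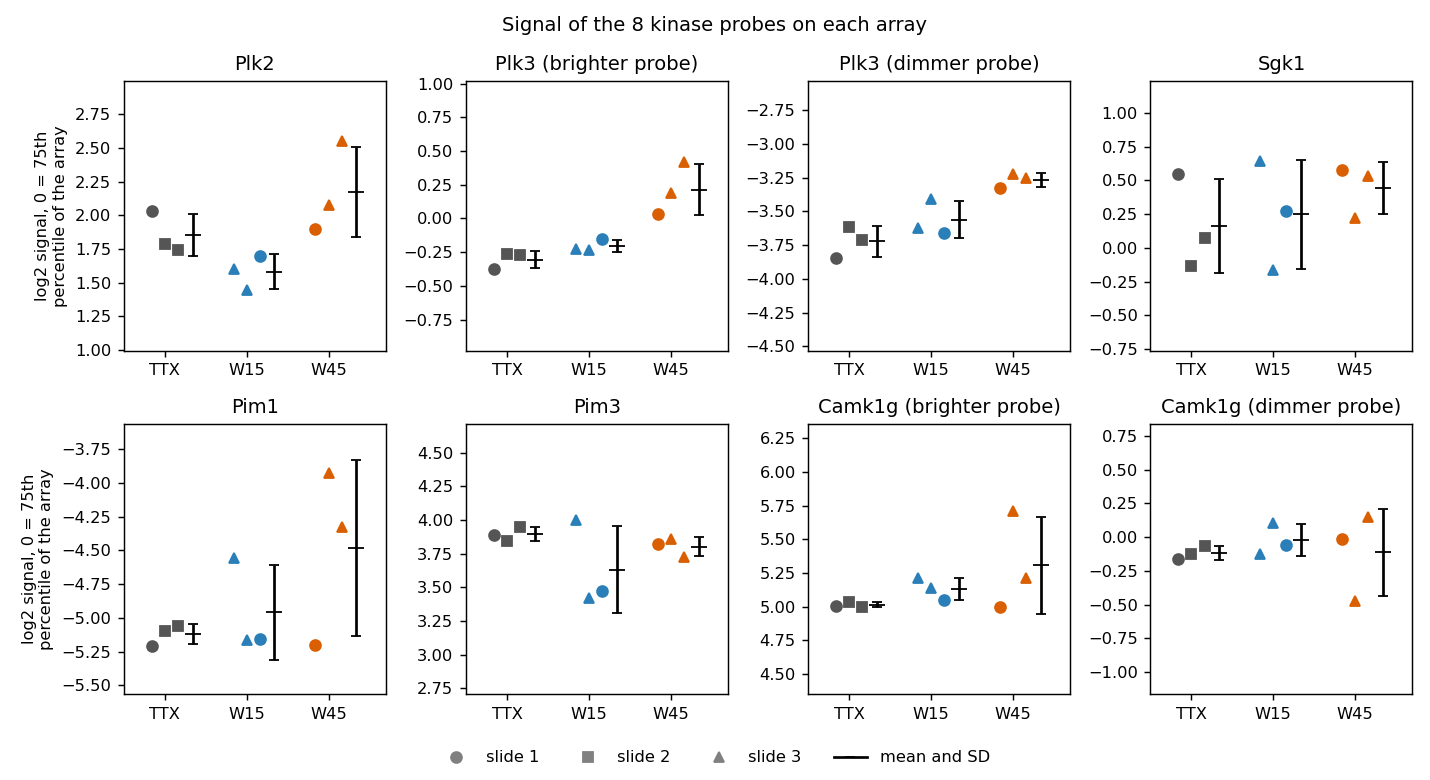
Log2 signal of each of the 8 probes on each of the 9 arrays (y axis, 0 is the 75th percentile of the array), by group, with the slide shown by the marker and the group mean and SD (n = 3) as bars; all panels span the same range of log2 units. The Plk3 probes both have their W45 arrays above all others, as had 8.36% of all genes against TTX alone and 3.93% against W15 alone. The Pim1 signal of W45 replicate 1 (-5.20) lies with the TTX arrays while replicates 2 and 3 lie above them.

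The second comparison asks what had changed by 45 min after washout. Again 0 of the 6 kinases were called, beside 0.182% of all genes called higher and 0.0194% called lower. Among all genes the balance of these calls rested on single arrays, with 70 higher and 92 lower without W45 replicate 1 and 50 higher and 29 lower without W45 replicate 3. The log2 fold change was above 0 for 5 of the 6, as it was for 60% of all genes. The median of the 6 was 0.31, against 0.05 over all genes. At an unadjusted p under 0.05 the count was 1 of 6, Plk3, where 3.77% of all genes were higher and 2.67% lower. Among called genes the smallest rise was 0.95 on the log2 scale, which is larger than the fold change of any of the 6 kinases. Arc, the synaptic immediate early gene, rose by 5.32 ± 0.25 over the same arrays (SE, limma adjusted p = 1.07e-05).

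Plk3 had the lowest unadjusted p of the 6 at 45 min in the reported fit. Its brighter probe stood at -0.38, -0.26 and -0.27 on the TTX arrays, at -0.23, -0.23 and -0.15 on the W15 arrays and at 0.03, 0.19 and 0.42 on the W45 arrays. All 3 W45 arrays were above all 6 others. This order held for 8.36% of all genes against TTX alone and for 3.93% against W15 alone. The share for both at once was not computed. The log2 fold change at 45 min was 0.52 ± 0.13 (SE, n = 3 each), a 1.43-fold difference, with a 95% interval of 0.23 to 0.81 on the log2 scale, an unadjusted p of 0.00305 by limma and an adjusted p of 0.412. The dimmer probe stood at -3.84, -3.62 and -3.71 in TTX and at -3.32, -3.22 and -3.25 at 45 min. It too separated the groups without overlap, as did 8.36% of all genes in this direction and 3.39% in the other. Its log2 fold change was 0.46 ± 0.13 (SE, limma adjusted p = 0.52), so both Plk3 probes gave a similar size, although they share the same RNA samples. On slide 1 alone the brighter probe differed by 0.41, and with slide as a block by 0.53 ± 0.23, while normexp background correction gave 0.25 ± 0.15 and no scaling between arrays 0.26 ± 0.21, beside medians of all genes of 0.13 and -0.21. Without W45 replicate 1 it was 0.61 ± 0.13 (limma adjusted p = 0.101).

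Plk2 stood at 1.90, 2.07 and 2.55 on the W45 arrays. These values overlapped those of TTX, whose highest array was 2.03. Against TTX the change was 0.32 ± 0.18 (SE, n = 3 each), with a 95% interval of -0.09 to 0.73 and a limma adjusted p of 0.809. The estimate moved with the processing, being 0.06 ± 0.30 with slide as a block, -0.13 on slide 1 alone, 0.06 ± 0.22 without scaling and 0.51 ± 0.24 with normexp. The median of all genes moved too, to -0.21 without scaling and 0.13 with normexp.

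Pim1 had the largest fold change of the 6 at 45 min and the largest spread. Its probe (NM_017034, chr20:7821966-7822025, plus strand, rn3) was dim, with a processed signal of 45.05 to 96.01, while the lowest signals called above background lay between 10.3 and 17.6. It stood at -5.21, -5.09 and -5.06 on the TTX arrays and at -4.56, -5.16 and -5.16 at 15 min. At 45 min it stood at -5.20, -3.92 and -4.32. Replicate 1 at 45 min was therefore level with TTX, and replicates 2 and 3 were higher. Against TTX its log2 fold change was 0.64 ± 0.30 (SE, n = 3 each), with a 95% interval of -0.04 to 1.32 and a limma adjusted p of 0.767. Only 1.58% of all genes had a larger fold change.

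The 3 highest Pim1 values all came from slide 3, on which W15 replicate 1 and W45 replicates 2 and 3 lay, while the fourth array of that slide, W15 replicate 2, was at the TTX level. On slide 1 alone the difference of W45 from TTX was 0.0074, and with slide as a block it was 0.27 ± 0.38. Without W45 replicate 1 the log2 fold change was 1.0 ± 0.22 (SE, limma adjusted p = 0.103).

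Sgk1 (probe NM_019232, chr1:23504663-23504722, minus strand, rn3) stood at 0.55, -0.13 and 0.08 on the TTX arrays. It stood at 0.64, -0.17 and 0.28 at 15 min and at 0.58, 0.22 and 0.53 at 45 min. In each of the 3 groups replicate 1 was the highest and replicate 2 the lowest. Its log2 fold change was 0.28 ± 0.24 at 45 min (SE, n = 3 each), with a 95% interval of -0.26 to 0.82 (limma adjusted p = 0.886). With the replicate number as a block the estimate was the same and its SE became 0.13, and it was still not called (limma adjusted p = 0.616). With slide as a block the estimate was -0.02 ± 0.36.

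Glial markers varied between arrays as well, and neither sum below kept the order of Sgk1 in all 3 groups. Over the 6 astrocyte markers, the summed signal in units of the array's 75th percentile was 85.1, 92.5 and 79.0 in TTX, 90.1, 82.0 and 81.1 at 15 min and 96.3, 72.2 and 71.7 at 45 min. It was highest in replicate 2 in TTX and in replicate 1 at 15 and 45 min. Over the 7 oligodendrocyte markers it was 40.8, 36.4 and 37.4 in TTX, 40.0, 37.8 and 40.4 at 15 min and 45.3, 40.0 and 38.6 at 45 min. Whether the number of glial cells had a part in the Sgk1 values was not tested.

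Pim3 (NM_022602, chr7:127206169-127206228, plus strand, rn3) lay close together at 45 min, with 3.82, 3.86 and 3.72 on the W45 arrays. The values overlapped those of TTX. Its log2 fold change was -0.09 ± 0.16 (SE, limma adjusted p = 0.949), with a 95% interval of -0.46 to 0.28.

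The 2 Camk1g probes (NM_182842, chromosome 13, minus strand, rn3) went opposite ways on W45 replicate 2, and both sequences are shown. The brighter probe lies at chr13:109381970-109382029, towards the 3′ end of the gene relative to the dimmer one at chr13:109386638-109388321, which spans 1684 bases of the genome.
Camk1g, brighter probe: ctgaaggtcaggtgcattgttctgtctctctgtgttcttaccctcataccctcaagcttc
Camk1g, dimmer probe: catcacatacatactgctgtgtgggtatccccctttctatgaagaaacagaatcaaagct
The brighter probe stood at 5.01, 5.04 and 5.0 in TTX and at 5.0, 5.71 and 5.21 at 45 min. The dimmer probe stood at -0.16, -0.12 and -0.07 in TTX and at -0.02, -0.48 and 0.15 at 45 min. On W45 replicate 2 the brighter probe had its highest value of all arrays and the dimmer probe its lowest. The log2 fold changes were 0.29 ± 0.18 and 0.0048 ± 0.17 (SE, n = 3 per group, limma adjusted p = 0.817 and 0.998), and neither was called. The brighter signal reached 76020, and no array was marked as saturated at this probe.

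**Figure D2:**
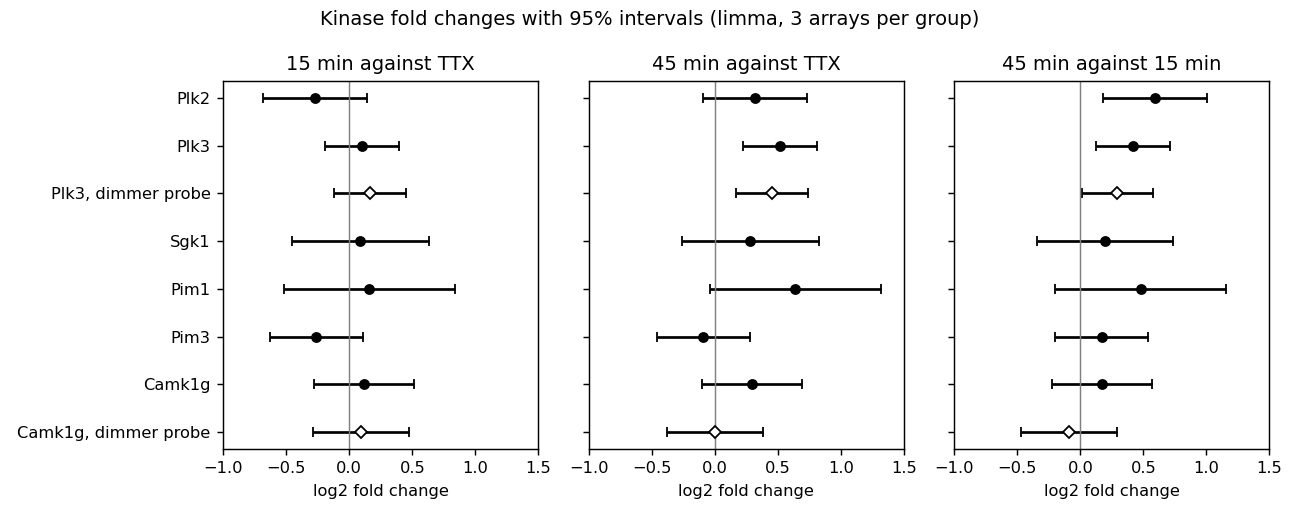
Log2 fold change (x axis) of each probe in the 3 comparisons, with single-test 95% intervals from limma; filled circles are the probes that represent the genes and open diamonds the dimmer probes of Plk3 and Camk1g. At 45 min against TTX only the intervals of the Plk3 probes (0.23 to 0.81 and 0.17 to 0.74) lie wholly above 0, and only that of Pim1 reaches beyond 1.

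These intervals are those of the reported processing and are not bounds under the other settings. A log2 fold change of 1, which is a 2-fold rise, lay outside the single-test 95% interval of Plk2, Plk3, Sgk1, Pim3 and Camk1g at 45 min, and inside that of Pim1. The upper bounds were 0.73, 0.81, 0.82, 0.28 and 0.69 for the first 5 in that order.

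The third comparison, of 45 min with 15 min, asks which kinases changed between the time points. It found 0 of the 6 kinases called, beside 0.12% of all genes called higher and 0.0116% called lower. Among all genes the calls were 57 higher and 128 lower without W45 replicate 1 and 34 higher and 31 lower without W45 replicate 3. All 6 had a log2 fold change above 0, as did 49.6% of all genes. The median of the 6 was 0.31, against -0.0019 over all genes. At an unadjusted p under 0.05 the count was 2 of 6, Plk2 and Plk3, where 2.68% of all genes were higher and 3.98% lower. For both of these kinases all 3 W45 arrays lay above all 3 W15 arrays, as they did for 3.93% of all genes, with 4.18% in the opposite order.

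Plk2 had a log2 fold change of 0.59 ± 0.18 between 15 and 45 min (SE, n = 3 each), with a 95% interval of 0.18 to 1.0 and a limma adjusted p of 0.676. Its values went from 1.44 to 1.70 at 15 min to 1.90 to 2.55 at 45 min. The W15 arrays were the lowest of the 3 groups, and the W45 arrays overlapped TTX. The 2 time points are balanced over slides, and the difference was 0.20 on slide 1 and 0.79 ± 0.25 on slide 3. Plk3 had 0.42 ± 0.13 (limma adjusted p = 0.69), with 0.18 on slide 1 and 0.53 ± 0.21 on slide 3, and its dimmer probe 0.29 ± 0.13. Both kinases were thus higher at 45 than at 15 min on each slide, and neither passed the adjusted threshold there. With normexp background correction Plk2 had 0.82 ± 0.24, Plk3 0.17 ± 0.15 and the dimmer Plk3 probe -0.13. Pim1 had 0.48 ± 0.30, with -0.04 on slide 1 and 0.74 ± 0.29 on slide 3. Normexp background correction turned its sign (-0.30, beside a median of all genes of -0.19). The remaining 3 had 0.17 to 0.19. These values share the W45 arrays with the comparison against TTX and are no separate evidence.

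**Figure D3:**
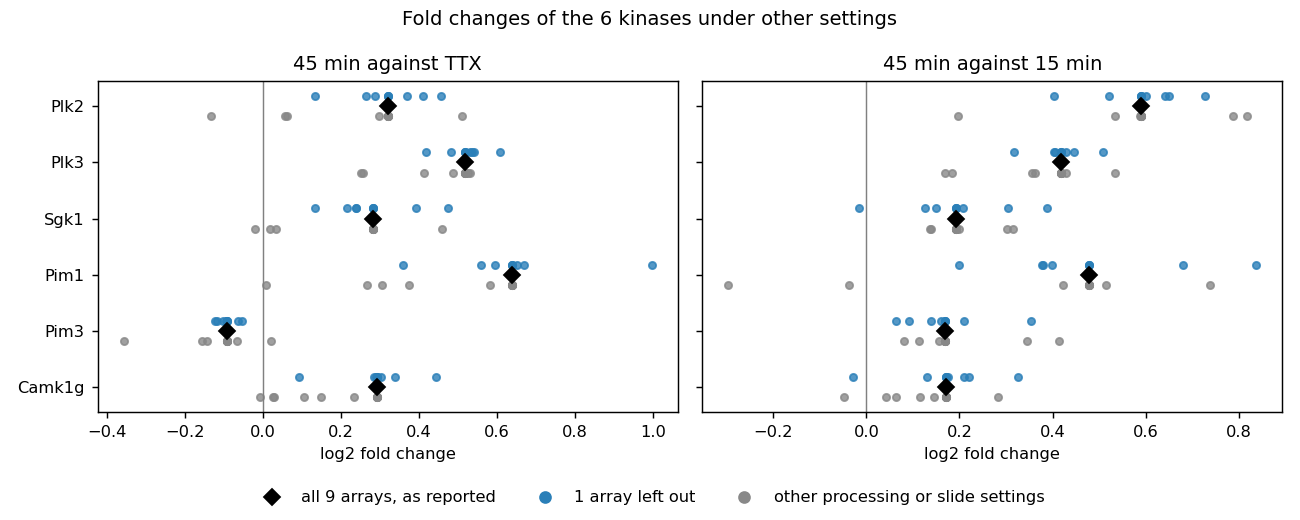
Log2 fold change (x axis) of the 6 kinases at 45 min against TTX (left) and against 15 min (right), as reported from all 9 arrays (diamonds), with 1 array left out (blue) and under the other settings, including slide 1 alone (grey). Plk3 stays above 0 in both panels, while its dimmer probe, which is not drawn, fell to -0.13 against 15 min with normexp. Against TTX, Plk2 falls to -0.13 on slide 1 alone and Pim1 ranges from 0.0074 to 1.0, and against 15 min Pim1 falls to -0.30 with normexp.

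The promoters of Plk2 and Plk3 are shown because all W45 arrays of these 2 genes lay above all W15 arrays. Neither difference was called, and all 6 kinases had a fold change above 0 in that comparison. Whether promoter letters had a part in any difference was not tested. The sequences run from 250 bases before to 50 after the annotated start and come from RefSeq on the GRCr8 build. Capitals mark the cAMP response element TGACGTCA, or its core TGACG, on either strand.
Plk2 promoter, chr2:43702286-43702585, plus strand: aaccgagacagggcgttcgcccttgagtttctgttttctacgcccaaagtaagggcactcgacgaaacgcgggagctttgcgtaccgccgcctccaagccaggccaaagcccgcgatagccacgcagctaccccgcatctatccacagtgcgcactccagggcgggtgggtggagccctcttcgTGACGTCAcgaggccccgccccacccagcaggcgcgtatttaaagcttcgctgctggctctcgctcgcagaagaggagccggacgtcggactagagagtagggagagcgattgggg
Plk3 promoter, chr5:135848851-135849150, minus strand: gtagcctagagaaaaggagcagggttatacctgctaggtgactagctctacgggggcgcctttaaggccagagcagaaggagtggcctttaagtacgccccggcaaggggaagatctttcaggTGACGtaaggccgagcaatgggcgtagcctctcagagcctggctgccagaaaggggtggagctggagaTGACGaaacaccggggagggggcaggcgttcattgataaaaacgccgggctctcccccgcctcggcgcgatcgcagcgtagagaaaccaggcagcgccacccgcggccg
Plk2 held 1 full element, beginning at -66 from the start, which overlaps its 2 TGACG matches. A full element was found in 1.83% of the 33465 rat promoters of the same length. Plk3 held none and had 2 TGACG matches, at -127 and -59, and 21.2% of promoters held at least 1 on either strand. Neither element was found in the windows of Sgk1, for which 3 starts are listed, Pim1, Pim3 or Camk1g. A CArG box, the core of the serum response element, was found in none of these windows and in 1.64% of all promoters. One of the Sgk1 windows held a TGANTCA match (AP-1), as did 7.33% of promoters. These matches describe letters in a window and say nothing about binding.

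Other genes of the same families and pathways were set beside the 6 kinases. Among 13 tested relatives (Plk1, Plk4, Sgk3 and kinases of the calmodulin-dependent families), 0 passed the test in either direction at 45 min, and the median log2 fold change was 0.06. Pnck, a relative of Camk1g within the CaMKI family, had -0.82 ± 0.16 (SE, n = 3 per group, limma adjusted p = 0.172). All 3 of its W45 arrays lay below all 3 TTX arrays, as was so for 3.39% of all genes. Its change was in size beyond that of every one of the 6 kinases, though it was not called either. Plk4, which controls centriole duplication, had -1.04 ± 0.49 (limma adjusted p = 0.769), and Camkk2, a kinase that activates CaMKI, had 0.40 ± 0.40.

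Of 13 tested partners and substrates of Plk2 and Plk3, 0 were called at 45 min, with a median of 0.10 and a range from -0.12 to 0.29. Rap2a, a small GTPase, had 0.29 and Rasgrf1, a Ras exchange factor, 0.18. The gene of SPAR, Sipa1l1, had -0.09 ± 0.23. Of 15 tested genes of the Sgk1 pathway, 0 were called, with a median of 0.11. The largest values were those of the transcription factor genes Foxo1 (0.64 ± 0.19, limma adjusted p = 0.628) and Foxo3 (0.46), and of Tsc22d3, a glucocorticoid-induced gene, at -0.48. Of 13 tested Pim substrates and translation genes, 0 were called, with a median of 0.12. Myc, whose protein is stabilised by Pim kinases, had 0.45 ± 0.13 (limma adjusted p = 0.545), Bad, a cell-death gene, -0.31, and the ribosomal S6 kinase gene Rps6ka1 0.28. Of 9 tested genes of the Camk1g pathway, 0 were called, with a median of 0.03. Besides Camkk2, the largest values were those of Camkv, a calmodulin-binding pseudokinase, at -0.15 and of the histone deacetylase gene Hdac5 at 0.14.

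Sgk1 is a classical glucocorticoid target, and other such genes were therefore read as a group. Of 10 tested, 1 was called higher at 45 min, Dusp1, a phosphatase of MAP kinases (2.69 ± 0.15, SE, limma adjusted p = 4.94e-05), and the median was -0.02. At an unadjusted p under 0.05 by limma, 4 of the 10 were higher and 1 lower, beside 3.77% and 2.67% of all genes. Counts higher and lower were 2 and 1 of 15 in the Sgk1 pathway and 1 and 0 of 13 for Pim substrates. They were 0 and 1 of 13 relatives and 2 and 0 of the 19 other inducible kinases. Both were 0 for the Plk2 and Plk3 partners and for the Camk1g pathway. Dusp1 is also an activity-induced gene. Per1, a clock gene, had 0.77 ± 0.25 (limma adjusted p = 0.664) and Errfi1, an inhibitor of the EGF receptor, 0.54. Fkbp5, a sensitive glucocorticoid target, had 0.04 ± 0.25. Among 19 tested other kinases and pseudokinases with inducible expression, 0 were called at 45 min and the median was 0.15. The largest values were those of the pseudokinase Trib1 (1.19 ± 0.24, limma adjusted p = 0.221) and of the salt-inducible kinase Sik1 (0.91 ± 0.32, limma adjusted p = 0.709), followed by Nuak2, an AMPK-related kinase, with 0.40. At 15 min 0 genes of these 7 lists were called, and between 15 and 45 min Dusp1 was the only one (2.33 ± 0.15, SE, limma adjusted p = 0.000313).

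**Figure D4:**
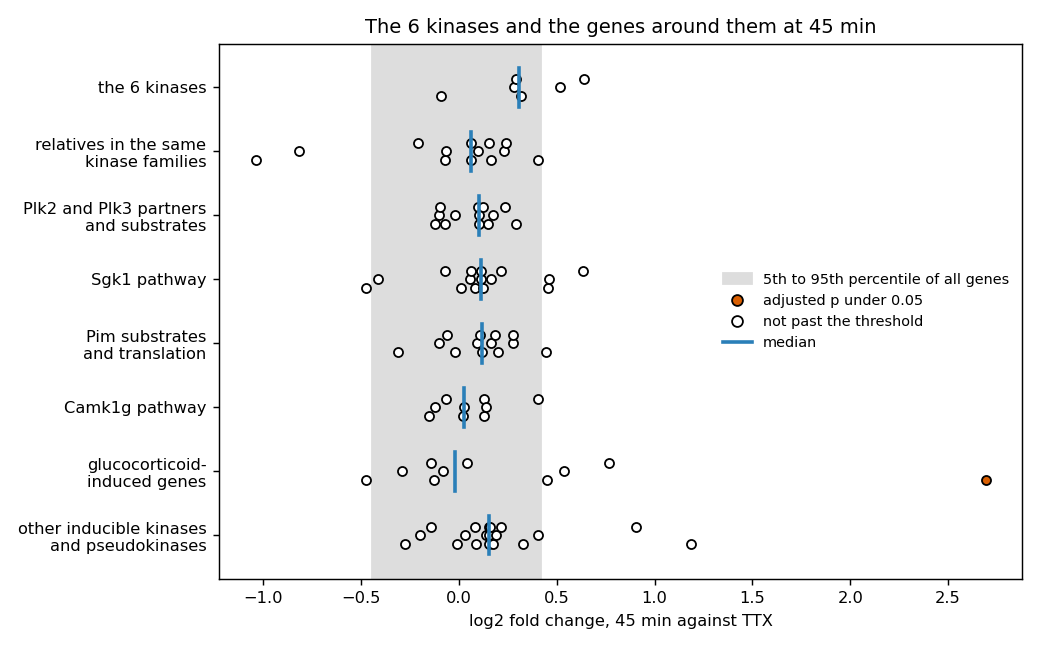
Log2 fold change at 45 min against TTX (x axis) of the 6 kinases and of the tested members of 7 gene lists, 1 point per gene, with the list medians as bars and the 5th to 95th percentile of all 25786 genes (-0.45 to 0.42) shaded. Plk3 and Pim1 lie to the right of the shaded range, Pnck and Plk4 to its left, and Dusp1 is the only point past the adjusted threshold.

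Patterns most like those of the 6 kinases were taken as the 3 named genes with the highest Pearson correlation over the 9 arrays. They are the highest among many genes and so are descriptions only. For Plk3 the nearest were Dusp4, a MAP kinase phosphatase (r = 0.980), Thap4 (0.975) and Cbx8, a Polycomb protein (0.960). The fold change of Dusp4 at 45 min was 1.13 on the log2 scale, so it shared the pattern of Plk3 at a larger size. For Plk2 they were Megf10, Ifit1 and Lmo1 (0.982, 0.972 and 0.967). For Sgk1 they were Supv3l1, the neurotensin receptor gene Ntsr2 and the neuropeptide gene Adcyap1 (0.976, 0.965 and 0.964). For Pim1 they were Lnpep, Hoxc6 and Rdm1 (0.989, 0.979 and 0.969), for Pim3 Arhgef3, Cdc42se1 and Pptc7 (0.957, 0.927 and 0.907) and for Camk1g Brpf3, the microglial complement gene C1qc and Bcap31 (0.985, 0.983 and 0.978). Among the 6 kinases themselves the coefficients were 0.75 for Plk2 with Plk3, 0.90 for Pim1 with Camk1g and 0.70 for Pim1 with Plk3, whereas Pim3 had -0.09 with Plk3.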

How the data were processed

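The authors' scanner files hold spot intensities of the Cy3 channel. Per the file headers, they were made with Agilent Feature Extraction 9.5.3.1 from array design 014879 (the submitters' processing notes name version 9.5), their processed signal having been background-subtracted and detrended without scaling between arrays. Labelling started from 500 ng of RNA, per the labels' protocols. The deposited value table holds the same intensities (largest difference 0). Flags that the authors deposited with each spot, such as control type and well above background, were used as given.

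Control spots (1639 of 45018) were left out, outlier spots were set to missing, and spots of 1 probe were averaged. Values are log2 signals minus the array's 75th percentile. A probe was kept when well above background on all 3 arrays of a group and missing on at most 1 array (30321 of 41012), and the brightest kept probe stood for its gene. Probes were named through RefSeq (GRCr8) by accession (10735), symbol (5571), other accession (83) or synonym (3705), and 20918 kept the name in the file. Probe positions are those of the files, in rn3. Of the probes, 72.4 to 77.9% stood well above background, and the number of arrays limits the precision.

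R 4.3.3 was used, with data.table at version 1.17.8. The limma model (version 3.58.1) took all 9 arrays, with group means, no covariate and two-sided tests, and calls were made at an adjusted p under 0.05. The dimmer probes of Plk3 and Camk1g were tested in a fit of all kept probes. Median degrees of freedom were 9.19. The step was tested on simulated data. Alternatives were normexp with an offset of 50, no scaling, quantile scaling, other filters and probe rules, another variance shrinkage, fits of only the groups compared, replicate or slide blocks, single slides and leaving out each array. Deviations of same-numbered arrays from their group means correlated at 0.29, 0.389 and 0.225 between TTX and W15. They correlated at 0.256, 0.367 and 0.122 between TTX and W45 and at 0.0628, 0.183 and 0.151 between W15 and W45. No correlation was computed between arrays with different numbers, so these values cannot show whether the numbers pair the samples. The labels give only the numbers, and the reported fit used no pairing. Members and lists were chosen with earlier results of these data known. The text names the 6 kinases, the list members called or among the 3 largest changes of their list at 45 min, Fos and Arc as checks of activity, Sipa1l1 and Fkbp5 (chosen after their values were seen), and the 3 genes nearest to each kinase; 1 gene that this rule names is not reported here. Plots were made in Python 3.11.15 (matplotlib 3.10.9).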

Additional observations from a re-analysis of the deposited data

How the results depend on the processing

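No kinase was called in any comparison under any of the alternatives that gave a test, and 0 of the 8 probes were. The lowest adjusted p by limma was 0.101, for Plk3 at 45 min without W45 replicate 1. The replicate block changed no call of a kinase (Plk3 at 45 min, 0.52 with adjusted p = 0.346).

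Signs changed as follows. At 15 min against TTX, no scaling gave Plk3 -0.11, Sgk1 -0.12, Pim1 -0.047, Camk1g -0.087 and the dimmer probes of Camk1g and Plk3 -0.11 and -0.045, relative to a median of all genes of -0.15. The slide block gave Sgk1 -0.22, Pim1 -0.21 and Camk1g -0.068, and normexp gave Camk1g -0.038. At 45 min against TTX, normexp gave Pim3 0.021 and the dimmer Camk1g probe -0.18, no scaling gave that probe -0.26, and the slide block gave Sgk1 -0.022. Between 15 and 45 min, normexp gave Pim1 -0.30 and the dimmer Plk3 probe -0.13. The median of all genes was 0.21, 0.13 and -0.19 with normexp and -0.21 at 45 min without scaling.

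Slide 1 alone (no test) gave Plk3 0.23, Camk1g 0.042 and Sgk1 -0.27 at 15 min, Plk2 -0.13, Pim1 0.0074, Camk1g -0.0068 and Sgk1 0.032 at 45 min, and Plk2 0.20, Plk3 0.18, Pim1 -0.038 and Camk1g -0.049 between the time points. Here and with the slide block, TTX rests on 1 array.

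The count of all genes called was 6, 52 and 34 in the 3 comparisons. At 15 min it became 2 with normexp, 0 with the slide block and 10 with a trended robust spread. At 45 min it became 23 with normexp, 31 without scaling, 22 with the slide block and 31 with only the groups compared. Between the time points it became 15 with normexp, 20 without the filter on dim probes, 19 with only the groups compared and 0 on slide 3 alone.

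Leaving out 1 array gave 2 to 8, 29 to 162 and 18 to 185 genes called. Against TTX at 15 min the count was 2 without TTX replicate 2 or W15 replicate 2 and 3 without TTX replicate 3. At 45 min it was 29 without TTX replicate 1 or 2, 32 without TTX replicate 3, 162, 30 and 79 without W45 replicates 1, 2 and 3. Between the time points it was 22 without TTX replicate 2, 18 and 19 without W15 replicates 1 and 2, and 185, 18 and 65 without W45 replicates 1, 2 and 3. At 15 min the range was -0.33 to -0.18 for Plk2, 0.06 to 0.12 for Plk3, -0.11 to 0.30 for Sgk1, -0.042 to 0.26 for Pim1, -0.45 to -0.16 for Pim3 and 0.08 to 0.16 for Camk1g. At 45 min it was 0.13 to 0.46 for Plk2, 0.42 to 0.61 for Plk3, 0.13 to 0.47 for Sgk1, 0.36 to 1.0 for Pim1, -0.12 to -0.05 for Pim3 and 0.09 to 0.44 for Camk1g (-0.13 to 0.19 for its dimmer probe). Between the time points it was 0.40 to 0.73 for Plk2, 0.32 to 0.51 for Plk3, -0.015 to 0.39 for Sgk1, 0.20 to 0.84 for Pim1, 0.06 to 0.35 for Pim3 and -0.028 to 0.32 for Camk1g (-0.22 to 0.091 for its dimmer probe). The causes were not tested.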
